A study of Homo sapiens with 6 samples.

Results

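The CCN genes encode a family of secreted matricellular proteins, and all 6 of them were found in the expression table of 20811 genes by their older symbols: CYR61 (now CCN1), CTGF (CCN2), NOV (CCN3), WISP1 (CCN4), WISP2 (CCN5) and WISP3 (CCN6). The table compares HuCCT1/CD90+ with HuCCT1/CD90- cells, with 3 libraries of each line. HuCCT1 is a human intrahepatic cholangiocarcinoma (iCCA) cell line. HuCCT1/CD90+ cells had received the THY1-CMV-GFP lentivirus (THY1 encodes CD90). HuCCT1/CD90- cells had received the Lenti-CMV-GFP-2A-Puro-Blank lentivirus instead. Both constructs name the CMV promoter and GFP, and only the blank one names a puromycin cassette. Both lines grew in RPMI with fetal bovine serum, the labels name no treatment other than the virus, and each is a single transduced population, so that CD90 itself, the differing construct and the history of each population cannot be told apart. No source says that the 3 libraries of a line came from separate cultures, and p-values then measure only the spread between these libraries.

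CCN proteins are built from modules that resemble insulin-like growth factor binding proteins, von Willebrand factor type C, thrombospondin type I repeats and a cysteine knot, the last of which WISP2 lacks. They sit in the pericellular matrix, where they bind integrins, LRP receptors and heparan sulfate proteoglycans, and they also bind growth factors. CYR61 and CTGF are immediate early genes and standard transcriptional readouts of YAP/TAZ with TEAD factors, and CTGF is in addition a well-known target of TGF-β in liver fibrosis.

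The data held 3 CCN transcripts at clear levels, and these did not move together. CYR61 was 1.89-fold higher in HuCCT1/CD90+ cells, whereas CTGF was 2.27-fold and NOV 2.06-fold lower. WISP1, WISP2 and WISP3 had at most 3 reads in any library. Each gene is read over 1 short amplicon and given in RPM, reads scaled to a common library total, so that a level compares the same gene between libraries and not 1 gene with another. Whole reads were recovered from the values, and the libraries held 8587634 to 10551516 of them. In these bulk samples, fewer expressing cells and less RNA per cell cannot be told apart. THY1, which checks the labels, had 0, 1 and 0 reads in HuCCT1/CD90- and 435, 445 and 680 in HuCCT1/CD90+. The biliary keratins KRT7 and KRT19 were at 3042 RPM or more in every library, and both are defining markers of the labelled biliary type.

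Because TEAD sites define how CTGF is controlled in many cells, the 250 bases before its start were taken from RefSeq (GRCh38.p14, chr6:131951373-131951622, minus strand). They are shown beside those of ANKRD1 (chr10:90921088-90921337, minus strand), the YAP/TAZ target with the largest rise here, which was picked after its value was seen. Both run 5′ to 3′ toward the start, and capitals mark the TEAD motif GGAATG.
CTGF: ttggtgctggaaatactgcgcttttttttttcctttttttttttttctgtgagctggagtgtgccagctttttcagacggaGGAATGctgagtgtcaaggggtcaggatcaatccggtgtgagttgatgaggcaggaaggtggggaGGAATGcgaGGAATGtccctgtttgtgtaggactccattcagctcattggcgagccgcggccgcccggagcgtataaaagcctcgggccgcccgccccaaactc
ANKRD1: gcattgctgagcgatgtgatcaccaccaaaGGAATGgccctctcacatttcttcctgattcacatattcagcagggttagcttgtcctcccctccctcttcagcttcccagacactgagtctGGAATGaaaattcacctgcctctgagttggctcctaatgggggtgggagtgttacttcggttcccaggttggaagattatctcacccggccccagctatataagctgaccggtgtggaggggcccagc
The CTGF stretch held 3 matches, which begin 169, 104 and 95 bases before the start, and the ANKRD1 stretch held 2. On both strands, 11.9% of 35116 promoters of this length held at least 1 match and 0.0826% held 3 or more. The SMAD motif CAGAC occurred once in CTGF, 177 bases before the start and clear of the TEAD matches, and 38% of all promoters held it. The AP-1 motif TGANTCA, the TCF/LEF motif CTTTGAT and the CArG box of SRF were not found in the CTGF stretch, and 6.57%, 2.26% and 1.16% of promoters held them. These are matches of letters and not measured binding.

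CYR61, which encodes a ligand of αv and α6 integrins that promotes adhesion and migration, was the most read member. It lies on chromosome 1 of GRCh38 from 85580761 to 85583962 by GENCODE 29. Positions are not part of the expression table, and where the amplicon falls within each gene was not analysed here. CYR61 stood at 314, 332 and 346 RPM in HuCCT1/CD90- and reached 648, 629 and 597 RPM in HuCCT1/CD90+. Each HuCCT1/CD90+ library was above each HuCCT1/CD90- library, and the spread within a line was small. The means were 330.5 ± 16.2 and 625 ± 26.0 RPM (SD, n = 3 each). The log2 fold change on log2(RPM + 1) was 0.92 (standard error 0.051, 95% interval 0.78 to 1.05), with an adjusted p of 0.0014 from limma over all 20811 genes. The rise passed with the replicate number as a block (adjusted p = 0.032) and with any 1 library left out (adjusted p from 0.0055 to 0.011).

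CTGF, a heparin-binding matrix protein known for its part in fibrosis and as a cofactor of TGF-β, moved the other way. The gene lies on chromosome 6 from 131948176 to 131951373, on the minus strand. It had 45.5, 53.9 and 43.7 RPM in HuCCT1/CD90-, compared with 27.4, 18.6 and 17.0 RPM in HuCCT1/CD90+. The highest HuCCT1/CD90+ library, replicate 1, stayed below the lowest HuCCT1/CD90- library. The means were 47.7 ± 5.48 and 21.0 ± 5.61 RPM (SD, n = 3 each), from 157 to 504 reads per library. The log2 fold change was -1.17 (standard error 0.21, 95% interval -1.73 to -0.61, limma adjusted p = 0.027). With the replicate block the adjusted p was 0.090. It was between 0.078 and 0.090 when any library other than HuCCT1/CD90+ replicate 1 was left out, and 0.015 without that one. The log2 fold change stayed between -1.37 and -1.04, and edgeR with a filter on low counts (adjusted p = 5.3e-05) and DESeq2 (adjusted p = 1.5e-07) on recovered reads passed the threshold.

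NOV, which encodes a CCN protein often described as opposing CTGF, lies on chromosome 8 from 119416306 to 119424353. It had 17.6, 26.3 and 22.1 RPM in HuCCT1/CD90-, compared with 8.58, 10.9 and 12.6 RPM in HuCCT1/CD90+. The lines did not overlap, although the lowest HuCCT1/CD90- library and the highest HuCCT1/CD90+ library were close. The means were 22.02 ± 4.35 and 10.7 ± 2.02 RPM (SD, n = 3 each), from 80 to 246 reads per library. The log2 fold change was -0.97 (standard error 0.21, 95% interval -1.52 to -0.42, limma adjusted p = 0.041). With the replicate block the adjusted p was 0.0503, and with any 1 library left out it ranged from 0.0515 to 0.12, so that the call was lost each time while the log2 fold change stayed between -1.12 and -0.84. On recovered reads the adjusted p was 0.00053 with edgeR after a filter on low counts and 7.2e-05 with DESeq2.

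**Figure D1:**
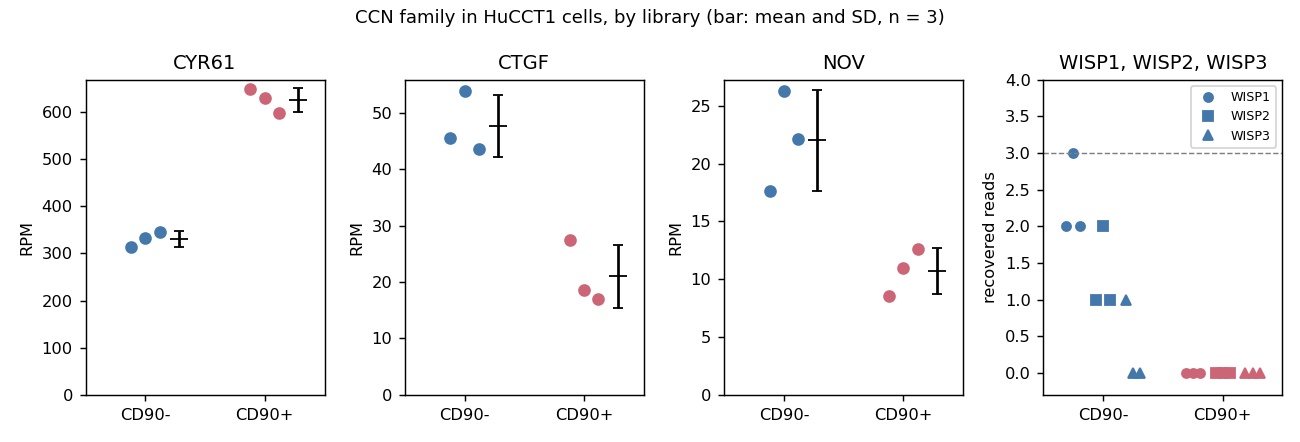
RPM of CYR61, CTGF and NOV and recovered reads of WISP1, WISP2 and WISP3 in each of the 3 HuCCT1/CD90- (blue) and 3 HuCCT1/CD90+ (red) libraries; black bars give the mean and SD, and the dashed line the floor of 3 reads. CYR61 lies higher and CTGF and NOV lie lower in every HuCCT1/CD90+ library, while the WISP genes stay at 0 to 3 reads.

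The remaining members, WISP1 and WISP2 (named for their induction by Wnt signalling) and WISP3 (a gene of cartilage homeostasis), were at the floor of 3 reads in both lines, and no fold is given for them. In HuCCT1/CD90-, WISP1 had 2, 3 and 2 reads, WISP2 had 1, 2 and 1, and WISP3 had 1, 0 and 0. None had a read in a HuCCT1/CD90+ library, where 0 reads allow up to 0.322 to 0.349 RPM per library. Over the 3 libraries of a line, WISP1 thus gave 7 reads of 30205316 against 0 of 27130648. In limma WISP1 had an adjusted p of 0.019, on 7 reads in all, whereas WISP2 (adjusted p = 0.067) and WISP3 (adjusted p = 0.57) did not pass, and with edgeR or DESeq2 none of these 3 genes was called.

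Counted together, 4 of the 6 members had an adjusted p of at most 0.05 (limma), 1 higher and 3 lower in HuCCT1/CD90+ with WISP1 among the latter. Over all genes 18.9% passed, 9.41% higher and 9.52% lower. Among the 8794 genes averaging 10 RPM or more, which hold CYR61, CTGF and NOV, 28.4% passed in the same fit. At the thresholds named in the study's methods (fold change of 1.5 and unadjusted p of at most 0.05) CYR61, CTGF and NOV passed, against 20.1% of all genes. At an adjusted p of at most 0.05 with the replicate block only CYR61 passed, against 13.1% of all genes. The lines did not overlap for 5 of the 6 members, including WISP1 and WISP2 on at most 3 reads per library, and for 35% of all genes. CYR61, CTGF and NOV were each without overlap, as were 52.5% of the 8794 genes. Within those 8794 genes, the fall of CTGF ranked 396 and that of NOV 544 among falls, and the rise of CYR61 ranked 658 among rises, so these were not extreme changes in this pair of lines.

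Counting error was below the spread between libraries for each of the 3 measured members. The coefficient of variation of CTGF was 26.6% over the HuCCT1/CD90+ libraries, where its read numbers alone would give 6.25% to 7.98%. For CYR61 it was 4.91% in HuCCT1/CD90- and 4.16% in HuCCT1/CD90+, against at most 1.80% from counting. For NOV it was 19.7% in HuCCT1/CD90-, against 6.38% to 7.33% from counting, and 18.8% in HuCCT1/CD90+, against 9.28% to 11.2%, where counting came closest to the spread. The reads carry no molecular identifiers, and these figures and the floors cover counting error only.

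The balance within the family shifted towards CYR61. Its share of all CCN reads per library was 83.2%, 80.4% and 84.0% in HuCCT1/CD90- and 94.7%, 95.5% and 95.3% in HuCCT1/CD90+. The share of CTGF was 11.9% ± 1.24 in HuCCT1/CD90- and 3.19% ± 0.717 in HuCCT1/CD90+, and that of NOV 5.47% ± 0.857 and 1.64% ± 0.378 (SD, n = 3 each). These shares depend on how well each amplicon is amplified, and only their shift between the lines is comparable. All CCN reads together came to 401 ± 20.4 RPM for HuCCT1/CD90- cells and 657 ± 28.95 RPM for HuCCT1/CD90+ cells, a sum that was not tested and of which CYR61 made up most in each line.

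Ratios within a library, from which its scaling drops out almost entirely, were compared for the 3 pairs of measured members. The log2 ratio of CYR61 to CTGF was 2.76, 2.60 and 2.96 in HuCCT1/CD90- and 4.51, 5.005 and 5.05 in HuCCT1/CD90+, a difference of 2.08. The lines were far apart for this pair, and the exact two-sided permutation p was 0.10, the smallest that 3 against 3 libraries allow (0.15 adjusted over the 3 pairs). CYR61 to NOV differed by 1.89, with a mean of 3.86 ± 0.238 in HuCCT1/CD90- and 5.75 ± 0.313 in HuCCT1/CD90+ (SD, n = 3 each, exact permutation p = 0.10). For CTGF to NOV the lines overlapped, with means of 1.09 ± 0.199 and 0.90 ± 0.602 (SD, n = 3 each, exact permutation p = 0.70). Without HuCCT1/CD90+ replicate 3 the difference of this last pair turned from -0.19 to 0.051, so that no order between the falls of CTGF and NOV could be read.

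**Figure D2:**
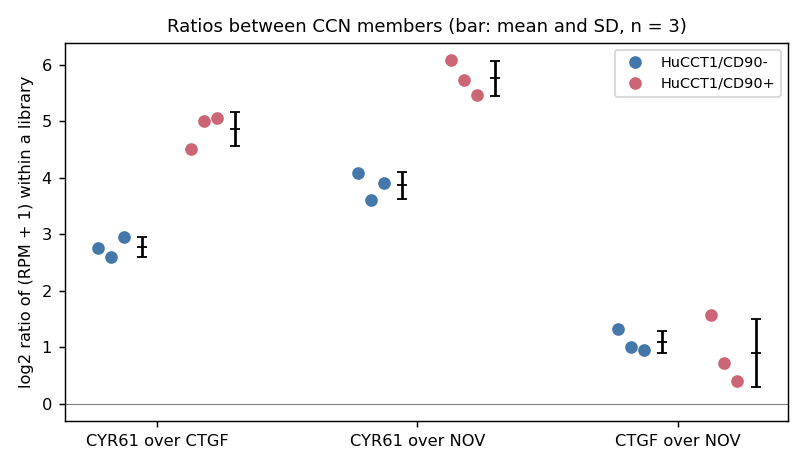
Log2 ratio of (RPM + 1) between pairs of CCN members within each library, for HuCCT1/CD90- (blue) and HuCCT1/CD90+ (red), with the mean and SD of 3 libraries. CYR61 over CTGF lies at 2.60 to 2.96 in HuCCT1/CD90- and at 4.51 to 5.05 in HuCCT1/CD90+, whereas CTGF over NOV overlaps between the lines.

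Genes around each member on its chromosome were examined. The 50 nearest genes averaging 10 RPM or more had a median log2 fold change of -0.28 around CYR61, -0.48 around CTGF and 0.25 around NOV. Of the neighbours of CTGF 41 were lower and 9 higher, and 21 of the lower and 2 of the higher ones passed the test (limma, adjusted p). Of those of CYR61 31 were lower and 19 higher, with 13 and 6 that passed, and of those of NOV 17 were lower and 33 higher, with 2 and 8 that passed. Over all genes averaging 10 RPM or more 28.4% passed. On either side of CYR61, DDAH1 rose (log2 fold change 1.56, limma adjusted p = 0.0034) and SEP15 was at -0.12 (adjusted p = 0.57). Beside CTGF, MED23 fell by 0.49 on the log2 scale (adjusted p = 0.032) and STX7 was at -0.017, and beside NOV, MAL2 rose (log2 fold change 2.31, adjusted p = 0.0033) and TAF2 was at -0.052. These 6 genes were picked by position alone. CYR61 and NOV moved against the median of their own neighbours, and CTGF moved with it. With that median subtracted, the log2 fold change of CYR61 was 1.197 (adjusted p = 0.00082, limma) and that of NOV -1.201 (adjusted p = 0.026). The value of CTGF became -0.70 and no longer passed (adjusted p = 0.11).

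**Figure D3:**
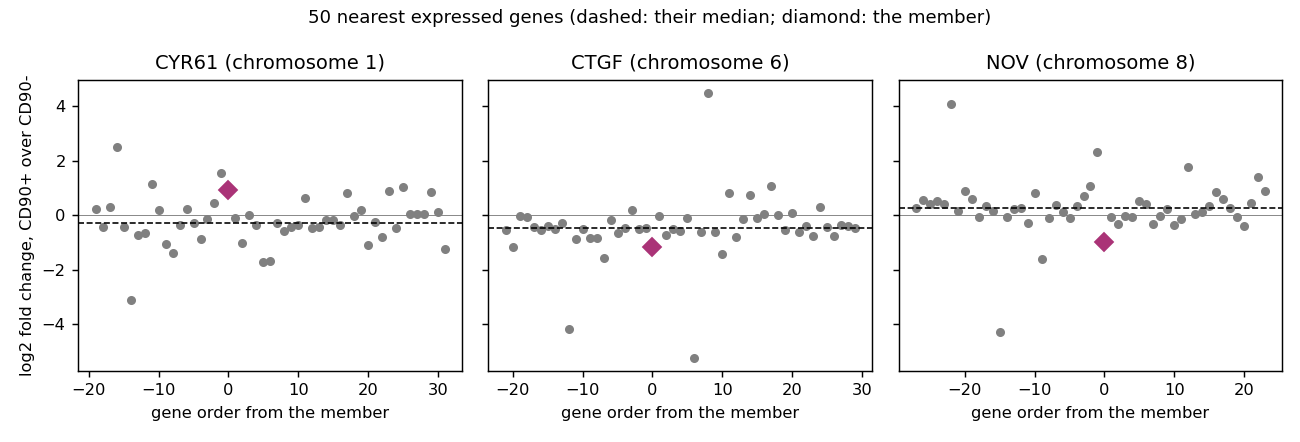
Log2 fold change (HuCCT1/CD90+ over HuCCT1/CD90-) of the 50 nearest expressed genes in their order along the chromosome around CYR61, CTGF and NOV; the diamond is the member and the dashed line the median of its neighbours. The medians are -0.28, -0.48 and 0.25, and CTGF lies on the same side of 0 as its neighbours.

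By the distance between centred log2(RPM + 1) values over the 6 libraries, the genes nearest to CTGF were TSPYL4, SH3RF3 and ADCK3, with Pearson's r from 0.969 to 0.987. TSPYL4 is one of the 50 neighbours of CTGF on chromosome 6 and had a log2 fold change of -1.17. PDCD10, WEE1 (the kinase that restrains entry into mitosis) and PDIA5 were nearest to CYR61, with r from 0.994 to 0.996. PKD1P1, PDE4DIP and PROCR (the endothelial protein C receptor) were nearest to NOV, with r from 0.988 to 0.995. The value of PKD1P1 is uncertain, as this pseudogene has near-identical copies. With 2 lines, such a likeness mostly restates a like difference between them.

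CYR61 and CTGF are members of a YAP/TAZ target signature with 20 other genes. Of these, 8 were higher and 4 lower in HuCCT1/CD90+ (limma, adjusted p of at most 0.05), where 9.41% of all genes were higher and 9.52% lower, and 8 did not pass. Their median log2 fold change was 0.48 against 0.00 over all genes. With the replicate block 3 were higher and 1 lower, where 13.1% of all genes passed in either direction. ANKRD1, a muscle ankyrin-repeat protein and sensitive YAP target, had 3.79, 4.39 and 7.18 RPM in HuCCT1/CD90-, compared with 19.2, 21.3 and 34.5 RPM in HuCCT1/CD90+. It was 4.88-fold higher (log2 fold change 2.08 with standard error 0.33, limma adjusted p = 0.019). F3 (tissue factor), AMOTL2 (a YAP-binding angiomotin) and MYOF (a membrane repair protein), which were picked after their values were seen, rose 2.05-fold, 1.78-fold and 1.54-fold, and MYOF lost its call with the block (adjusted p = 0.025 and 0.12, limma). RBMS3 (an RNA-binding protein) fell 3.85-fold, TGFB2 (a TGF-β ligand) 2.90-fold and IGFBP3 (an IGF carrier) 2.10-fold. These 3 falls passed only without the block (block adjusted p = 0.0547, 0.076 and 0.055, limma). The motif search kept only genes with exactly 1 promoter entry and left out chromosome 8. It covered 13 of the 20 genes, and 5 of those held the TEAD motif, among them ANKRD1 and TGFB2. The promoter of CYR61 was not searched.

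**Figure D4:**
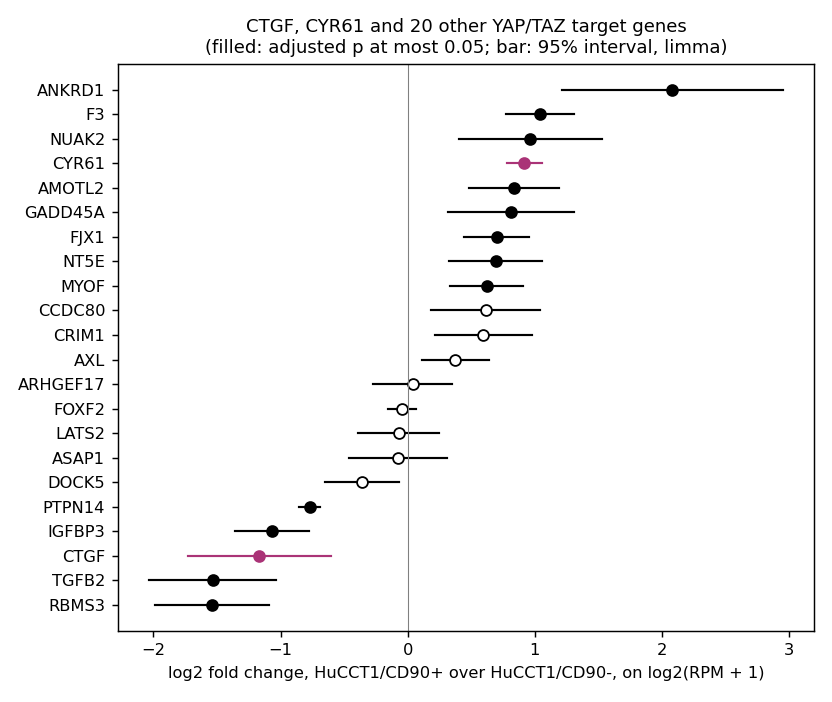
Log2 fold change on log2(RPM + 1), HuCCT1/CD90+ over HuCCT1/CD90-, with 95% intervals from limma, for CTGF and CYR61 (purple) and the 20 other genes of a YAP/TAZ target signature. Filled points have an adjusted p of at most 0.05. Of the 20 others, 8 filled points lie to the right of 0, as CYR61 does, and 4 to the left, as CTGF does.

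The regulators upstream of these targets were taken next. YAP1, the coactivator itself, had 257, 320 and 327 RPM in HuCCT1/CD90-, compared with 463, 396 and 436 RPM in HuCCT1/CD90+. The lines did not overlap, but the log2 fold change of 0.52 (95% interval 0.20 to 0.85) missed the threshold (adjusted p = 0.0525, limma). WWTR1, which encodes TAZ, had a log2 fold change of 0.23 (95% interval -0.072 to 0.53, adjusted p = 0.27). Of the TEAD factors that give YAP/TAZ their DNA contact, TEAD3 rose 1.55-fold (adjusted p = 0.016). TEAD1 was at 9.63 ± 4.28 and 23.6 ± 7.99 RPM (SD, n = 3 each, limma adjusted p = 0.14), TEAD4 was at 157 and 164 RPM (adjusted p = 0.84), and TEAD2 was at the floor.

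The Hippo kinase LATS1, which restrains YAP/TAZ, fell 1.37-fold (adjusted p = 0.043, or 0.066 with the block, limma), and its paralog LATS2 had a log2 fold change of -0.069 (95% interval -0.39 to 0.25). VGLL1, a TEAD cofactor, exceeded the HuCCT1/CD90- floor at least 487-fold, and SAV1, the scaffold of the Hippo kinases, rose 5.44-fold. VGLL3 rose 3.62-fold (adjusted p = 0.043, block 0.0519), while VGLL4, a cofactor that competes with YAP for TEAD, fell 2.35-fold. Of the 23 Hippo and TEAD genes 7 were higher and 3 lower, beside 9.41% and 9.52% of all genes. With the block 4 were higher and 2 lower, beside 13.1% of all genes in either direction. AMOTL2, LATS2 and PTPN14 count here and in the target signature.

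Of 16 cell-surface binders of CCN proteins, 2 were higher and 5 lower in HuCCT1/CD90+ cells (9.41% and 9.52% of all genes), and the block gave the same counts, against 13.1% of all genes in either direction, although ITGB5 and ITGA5 lost their calls and ITGA6 and ITGB2 gained one. ITGB3, the β3 subunit that joins αv in the classical CYR61 and CTGF receptor, had 16.2, 22.6 and 23.4 RPM in HuCCT1/CD90-, compared with 0.858, 1.51 and 0.651 RPM in HuCCT1/CD90+. It was 20.6-fold lower (log2 fold change -3.44, standard error 0.23, adjusted p = 0.0020, limma). LRP1, the endocytic receptor of CTGF, had 75.3, 178 and 140 RPM in HuCCT1/CD90-, compared with 8.04, 13.9 and 12.2 RPM in HuCCT1/CD90+. This was 11.6-fold lower, with an adjusted p of 0.0095 (limma) and no overlap between the lines.

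Other integrin subunits above the floor differed by less than 2-fold. ITGAV was at 127 ± 13.5 and 101 ± 3.78 RPM (SD, n = 3 each, limma adjusted p = 0.076), and ITGB5, which also pairs with αv, rose 1.37-fold (adjusted p = 0.032, block 0.064). ITGA6 had a log2 fold change of -0.41 (95% interval -0.84 to 0.016, adjusted p = 0.17, or 0.043 with the block, limma) and its partner ITGB1 was at 27.8 and 26.3 RPM (adjusted p = 0.91). ITGA5, the fibronectin receptor subunit, fell 1.88-fold and lost its call with the block (adjusted p = 0.033 and 0.067), and IGF2R, which binds CTGF, fell 2.22-fold. NOTCH1, a receptor that NOV binds, fell 1.86-fold, and FGFR2, a growth factor receptor that CTGF binds, was at 0 in HuCCT1/CD90- and at least 5.45-fold higher in HuCCT1/CD90+. LRP6, a Wnt co-receptor that CTGF binds, and the proteoglycan SDC4 had log2 fold changes of 0.16 (95% interval -0.46 to 0.78) and 0.22 (-0.037 to 0.47) and did not pass.

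Secreted partners and proteases were read against the 9.41% of all genes that were higher and the 9.52% that were lower. Of 12 proteins that bind CCN members 1 was higher and 4 lower, or 0 and 1 with the block. FN1 (fibronectin) fell 3.21-fold and BMP2 3.98-fold (block adjusted p = 0.053, limma), and DCN, the proteoglycan decorin, was at least 20.3-fold lower, from 2.27, 11.2 and 7.76 RPM (block adjusted p = 0.086). TNFRSF11B, the decoy receptor osteoprotegerin, rose 2.10-fold (block adjusted p = 0.061). Of 10 proteases that cleave CCN proteins 4 were lower and 0 higher, or 2 lower with the block, under which 13.1% of all genes passed in either direction. The collagenase MMP1 fell 21.2-fold from 146 ± 41.3 to 6.89 ± 1.61 RPM (SD, n = 3 each), MMP13 fell 9.63-fold, and the membrane protease MMP14 fell 2.36-fold (adjusted p = 0.032, block 0.078, limma). The fourth, MMP3, was at 2 to 4 reads in HuCCT1/CD90- and at 0 in HuCCT1/CD90+ (block adjusted p = 0.058, limma).

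The other inputs known for CTGF and CYR61 gave no single direction, and their counts stand beside 18.9% of all genes that passed, or 13.1% with the block. Of 14 genes of the TGF-β axis 2 were higher and 4 lower, or 2 and 1 with the block. TGFBI fell 3.65-fold (block adjusted p = 0.063, limma) and BAMBI, a decoy receptor of the pathway, 6.17-fold. TGFB2 is counted here as well as among the YAP/TAZ targets. TGFB1 had a log2 fold change of 0.058 (95% interval -0.26 to 0.37). Of 14 genes of SRF and its targets 1 was higher and 5 lower, or 1 and 3 with the block. TAGLN, MYL9 and ACTA2 of the contractile apparatus fell 8.65-fold, 4.69-fold and 2.62-fold, the last not with the block (adjusted p = 0.095), and the immediate early factor EGR1 fell 2.41-fold. Of 15 Wnt readout genes 3 were higher and 2 lower, or 4 and 2 with the block. CTNNB1 (β-catenin) fell 2.04-fold from 929 ± 84.9 to 455 ± 33.7 RPM (SD, n = 3 each), LEF1 was at least 11.5-fold lower and at 0 in HuCCT1/CD90+, and TCF7L2 and CCND1 rose 3.00-fold and 2.17-fold.

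**Figure D5:**
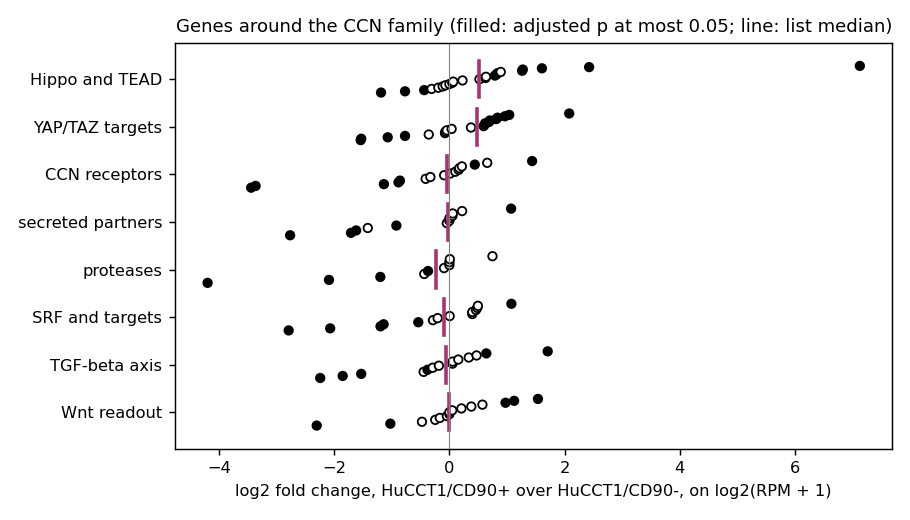
Log2 fold change on log2(RPM + 1), HuCCT1/CD90+ over HuCCT1/CD90-, of the genes of 8 lists around the CCN family, 1 point per gene. Filled points have an adjusted p of at most 0.05 (limma) and the purple line is the median of the list, which is 0.52 for Hippo and TEAD genes and 0.48 for YAP/TAZ targets.

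Markers of other cell types were read in the same libraries, and their counts stand beside 9.41% of all genes higher and 9.52% lower, or 13.1% in either direction with the block. The 8 fibroblast markers summed to between 41.8 and 65.3 RPM in HuCCT1/CD90- but to between 20.4 and 24.7 RPM in HuCCT1/CD90+, with 5 lower and 0 higher, or 2 lower with the block, and FAP had 0 or 1 read and PDGFRA 0 to 4 reads per library. The 5 endothelial markers summed to 14.9 to 23.4 and 1.29 to 1.86 RPM, with CDH5 lower and KDR and VWF at 0 in HuCCT1/CD90- and at 0 to 4 reads in HuCCT1/CD90+. The 5 blood markers summed to 79.94 to 99.98 and 5.25 to 6.64 RPM, with CD14 and LYZ lower (LYZ not with the block, adjusted p = 0.069, limma) and PTPRC at 0 or 1 read in every library. Of the 8 biliary markers 5 were higher and 0 lower, or 3 higher with the block, among them EPCAM with 28.6 and 363 RPM. These differences ran alongside the falls of CTGF and NOV, and their part in them was not tested.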

How the data were processed

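Total RNA of 6 HuCCT1 libraries was amplified by the authors with the Ion AmpliSeq Transcriptome panel, with an Ion GeneStudio S5 Prime as sequencer, and the ampliSeqRNA plugin gave reads per amplicon. The authors deposited RPM values of 20811 genes without a filter; the submitters' processing notes name hg19. Values were whole multiples of 1 read in at least 99.97% of cases per library (tolerance 0.05 reads plus rounding), and whole reads were recovered. The test was limma 3.58.1 under R 4.3.3 (lmFit, eBayes) on log2(RPM + 1) over all genes, as the study's methods name limma, with Benjamini-Hochberg adjustment and no replicate block. This scale understates changes of low genes. Alternatives included edgeR 4.0.16 (quasi-likelihood, TMM) and DESeq2 1.42.0 on the recovered reads, which called 5357 genes (after filterByExpr) and 5326 genes. Scripts were tested on simulated data.

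Deviations of same-numbered libraries from their line means correlated over all genes with r = 0.21, 0.32 and 0.18, and those of other pairs with -0.29 to 0.071. On these correlations only, with no label behind it, equal numbers were taken as pairs, and the block was fitted as an alternative. Its values stand beside the results it changes, except in the comparison with chromosomal neighbours, which is given without the block. The main test and the permutation of ratios were unpaired. All pairs of libraries differed beyond sampling noise (chi-square per degree of freedom of at least 9.18).

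The members and gene lists were chosen with earlier results of these data known. Named genes are the 6 members, THY1, up to 4 genes per list with the largest absolute log2 fold change among those that passed with a mean of at least 1 RPM, fixed regulators and receptors, and the 3 nearest profiles per measured member. Outside this rule, and with values seen, the text also names F3, AMOTL2, MYOF, PTPN14, MMP3, ITGB2, NOTCH1 and FGFR2. The same holds for some cell type markers (KRT7, KRT19, COL1A1, COL1A2, COL3A1, FAP, PDGFRA, KDR, VWF, PTPRC) and the genes flanking each measured member. Lists were described by counts, with no set test. Gene order came from GENCODE 29 and RefSeq (GRCh38), which placed all but 880 genes. Values of some list genes are not reported here.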

Additional observations from a re-analysis of the deposited data

How the results depend on the processing

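The direction of CYR61, CTGF and NOV was the same under each alternative tried, and CYR61 passed under each, with a log2 fold change from 0.87 to 1.197. CTGF (log2 fold change -1.17) and NOV (-0.97) lost the threshold with the replicate block, and CTGF also with the neighbours' median subtracted (-0.70). With 1 library left out the log2 fold change ranged from -1.37 to -1.04 for CTGF, from 0.88 to 0.95 for CYR61 and from -1.12 to -0.84 for NOV. In these fits CTGF lost the threshold in 5 of 6 and NOV in 6 of 6. When the test was limited to genes averaging 10 RPM or more, a limit combined with the block and with leaving out a library after the data were seen, CTGF, CYR61 and NOV passed in each of these fits (adjusted p at most 0.0049, limma). The prior degrees of freedom were 0.45 over all genes, and 3805 genes had no read in any library.

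With the replicate block the number of called genes was 1 of the CCN members, 4 YAP/TAZ targets, 6 Hippo and TEAD genes, 1 secreted partner, 2 proteases, 3 genes of the TGF-β axis, 3 biliary, 2 fibroblast and 1 blood marker. The block changed no other list by over 1.5 times. An offset of 5 RPM gave 3 secreted partners and 2 fibroblast markers, and an offset of 0.1 RPM 2 endothelial markers. Keeping genes that average 1 RPM or more gave 3 fibroblast and 2 endothelial markers, and 10 RPM or more gave 1 fibroblast, 0 endothelial and 1 blood marker, as low genes were not tested. edgeR with a filter gave 10 SRF genes, 3 fibroblast and 2 endothelial markers, edgeR without a filter 3 endothelial markers and 5995 genes over the table, against 3939, and DESeq2 2 endothelial markers. The study's thresholds gave 3 biliary and 2 endothelial markers.

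With 1 library left out, called genes numbered 1 to 3 CCN members, 5 to 9 YAP/TAZ targets, 5 to 8 Hippo and TEAD genes, 4 to 6 receptors, 1 to 6 secreted partners, 1 to 4 proteases, 3 to 6 SRF genes, 3 to 5 biliary, 1 to 3 fibroblast and 1 to 2 endothelial markers, and 2197 to 2932 genes over the table. The difference in the log2 ratio of CTGF to NOV ranged from -0.53 to 0.051, the latter without HuCCT1/CD90+ replicate 3. Apart from what construction shows, the cause was not tested. The depth limits WISP1, WISP2 and WISP3, which were not detectable above 3 reads.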
